A study of Mus musculus with 15 samples.

Results

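Epithelial alarmins are cytokines that barrier epithelium releases when it is irritated or damaged, and they were followed here with the receptor chains that bind them, in the conjunctiva of mice whose eyes were challenged after sensitization through the skin. The set holds 8 genes of the 55487 in the count table, chosen by symbol: the ligands *Tslp*, *Il33* and *Il25*, and the receptor chains *Crlf2*, *Il7r*, *Il1rl1*, *Il1rap* and *Il17rb*. RNA-Seq was performed on 15 conjunctiva libraries of wild-type mice, 5 per group, from female BALB/c mice aged 9 to 12 weeks (the labels spell the strain BALC/c). All 3 groups, the controls included, had been sensitized on the skin with MC903 (a vitamin D analog that provokes dermatitis) and ovalbumin (OVA), so no group shows an unsensitized conjunctiva. The PBS group was then challenged in the eye with PBS, and its label for the antibody reads N/A, which leaves unclear whether these mice had no antibody or none was recorded. The isotype group was challenged with OVA and given an isotype control antibody, and the anti–IL-4Rα group was challenged with OVA and given an antibody that blocks the IL-4 receptor α chain. Challenges ran daily from day 18 to day 24, and the antibodies were injected 4 times at 25 mg/kg from day 10. The isotype and PBS groups therefore differ in the challenge and may also differ in the antibody, and if so these cannot be told apart. The anti–IL-4Rα and PBS groups differ in both the challenge and the antibody label, so these cannot be told apart in that comparison.

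As background, TSLP, IL-33 and IL-25 act early in type 2 responses at the skin, airway and ocular surface, on mast cells, basophils, dendritic cells, T cells and innate lymphoid cells. TSLP binds a receptor made of CRLF2 and the IL-7 receptor α chain (*Il7r*) and signals through JAK kinases and STAT5. IL-33 binds ST2, the product of *Il1rl1*, which pairs with the accessory protein encoded by *Il1rap* and signals through MYD88 and IRAK kinases. IL-25 binds IL-17RB, which pairs with IL-17RA and signals through the adaptor encoded by *Traf3ip2*. IL-4 and IL-13, the cytokines whose shared receptor chain the antibody blocks, lie downstream of the alarmins in many of these cells.

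Of the alarmin receptor chains, *Il1rl1* was the one with the largest difference between groups, so its promoter sequences are shown first. *Il1rl1* (ENSMUSG00000026069) lies on the plus strand of chromosome 1 at 40429570 to 40465415 of GRCm38 and has 13 separate exon blocks. The gene is known to be transcribed from a distal start, used mostly by mast cells and other blood-derived cells, and from a proximal start, used by fibroblasts. The promoter table from RefSeq (GRCm38.p6) holds a window for each, 250 bases before to 50 bases after the start, at chr1:40429320-40429619 and chr1:40439379-40439678. The window of *Crlf2*, the other receptor chain that differed from the PBS group, is at chr5:109558944-109559243 on the minus strand. Capitals mark the GATA motif, searched on either strand as AGATAA, with the variants that end in G in place of the last letter or begin with T in place of the first, since GATA factors are known regulators in mast cells, basophils and type 2 lymphocytes.
Il1rl1 distal window: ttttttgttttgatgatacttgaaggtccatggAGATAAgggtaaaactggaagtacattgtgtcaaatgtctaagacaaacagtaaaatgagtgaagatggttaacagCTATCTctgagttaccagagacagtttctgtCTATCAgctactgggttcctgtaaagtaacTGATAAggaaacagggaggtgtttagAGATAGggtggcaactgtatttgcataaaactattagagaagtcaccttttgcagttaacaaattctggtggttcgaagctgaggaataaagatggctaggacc
Il1rl1 proximal window: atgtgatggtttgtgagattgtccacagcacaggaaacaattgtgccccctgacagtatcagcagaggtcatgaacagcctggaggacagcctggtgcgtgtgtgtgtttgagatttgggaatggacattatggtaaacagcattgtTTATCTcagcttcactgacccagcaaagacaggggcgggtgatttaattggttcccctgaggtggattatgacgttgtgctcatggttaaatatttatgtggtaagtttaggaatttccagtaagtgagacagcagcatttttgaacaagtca
Crlf2 window: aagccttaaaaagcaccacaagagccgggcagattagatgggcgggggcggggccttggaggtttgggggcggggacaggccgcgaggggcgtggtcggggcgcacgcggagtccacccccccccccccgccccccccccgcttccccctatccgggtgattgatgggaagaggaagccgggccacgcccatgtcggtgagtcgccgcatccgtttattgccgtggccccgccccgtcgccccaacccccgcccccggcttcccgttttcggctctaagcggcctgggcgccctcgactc
Positions give the first base of a match, with the start site as 1. The distal window of *Il1rl1* held 5 GATA matches, at positions -217, -141, -110, -80 and -54 from the start, and the proximal window held 1, at position -103. The *Crlf2* window held 0. Of the 32851 windows of the same length in the table, 29.8% held at least 1 such match. The share with 5 or more was not counted. A match to the STAT6 motif TTCNNNNGAA, held by 6.95% of all windows, was found 1 time, in the first of the 2 windows of *Il33*, at position -36. A match to the STAT5 motif TTCNNNGAA, held by 8.3% of all windows, was found in the window of *Il7r*. The windows searched were those of 6 of the 8 genes, without *Tslp* and *Il25*, so nothing is said of matches for these. A match describes letters and not binding, and no match says only that these letters are not in the window. The count table gives 1 value per gene, so it does not separate the 2 starts of *Il1rl1*, nor membrane from soluble ST2.

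Library totals ran from 48622246 to 87745024 estimated counts, with medians of 55243773 in the PBS group, 55573584 in the isotype group and 54178201 in the anti–IL-4Rα group. All 8 genes passed the filter of at least 10 counts in at least 5 libraries, with 19006 genes tested in all. Expression is given as CPM, the counts of a gene in each 1000000 of its library after TMM scaling, and the groups were compared by edgeR's quasi-likelihood test with adjustment over all 19006 genes, called at an adjusted p under 0.05. Markers of the surface epithelium (*Krt4*, *Krt13*, *Krt5*, *Krt14*, *Trp63* and *Krt19*) summed to between 8370 and 14879 CPM in every library. The libraries also held other tissue: markers of lacrimal gland acini summed to 136 to 3712 CPM in the PBS group, 167 to 2570 in the isotype group and 250.6 to 11030 in the anti–IL-4Rα group, and those of skeletal muscle to 3338 to 9633 CPM over all groups. Isotype replicate 1 stood apart from the rest of its group for several genes described here. It had the lowest summed markers of mast cells, basophils, eosinophils, T cells, dendritic cells and macrophages, and fibroblasts in the isotype group. Its summed markers of the lacrimal gland, at 2570 CPM, and of B cells, at 5.19 CPM, were the highest of the group. Where a call for one of the 8 genes depends on it, the value without it is given too. The study's methods report 2 outliers without naming them, and all 15 libraries were kept. Some legends of the paper give fewer than 5 samples per group for RNA-Seq panels, so its sets of libraries differ from the set used here.

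In the isotype group, 2 of the 8 genes rose against the PBS group, *Il1rl1* and *Crlf2*, both receptor chains. None of the ligands *Tslp*, *Il33* and *Il25* passed the test. Of all genes tested, 17.0% were called in this comparison, 9.53% higher and 7.49% lower, so 2 calls among 8 stand near the share of all genes. With anti–IL-4Rα, 1 of the 8 genes fell against the isotype group, *Il1rl1*, where 14.9% of all genes were called, 6.73% higher and 8.13% lower. Between the anti–IL-4Rα and PBS groups 0 of the 8 were called, against 3.72% of all genes (2.28% higher and 1.44% lower). In that comparison *Crlf2* and *Il1rl1* were the 2 with an unadjusted edgeR p under 0.05 (0.0408 and 0.0441). The share of all genes under that unadjusted p was not counted, so these 2 have no baseline to be set against.

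**Figure D1:**
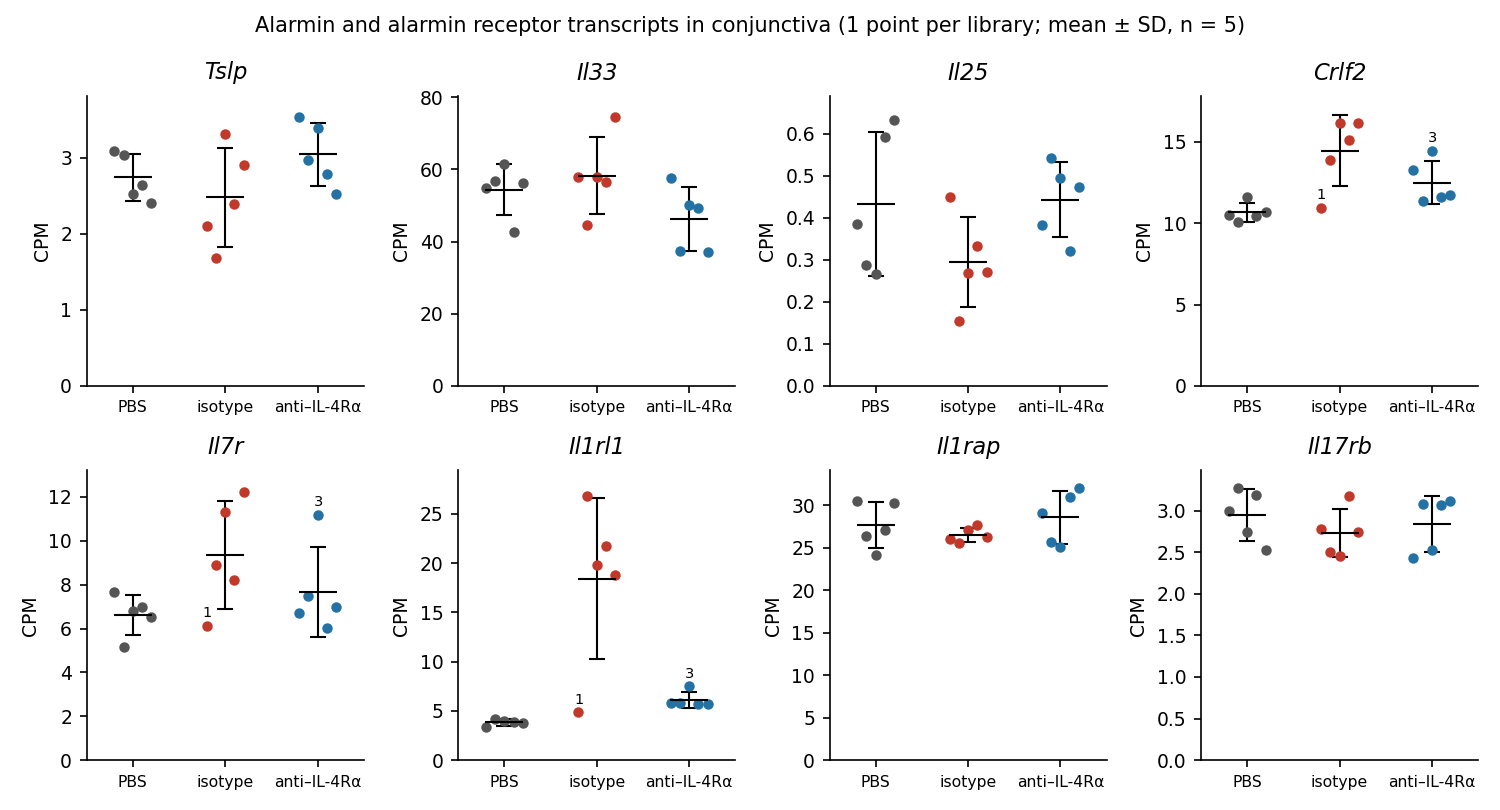
Expression (CPM, linear axis from 0) of the 8 genes in each of the 15 libraries, with bars for mean ± SD (n = 5); isotype replicate 1 and anti–IL-4Rα replicate 3 are numbered where they are named in the text. For Il1rl1, 4 isotype libraries lie between 18.8 and 26.8 CPM and isotype replicate 1 at 4.88 CPM. The panels of Tslp, Il33, Il25, Crlf2, Il7r, Il1rap and Il17rb show groups that overlap in every comparison.

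*Tslp* (ENSMUSG00000024379), the alarmin that MC903 is known to induce in skin, was at 3.09, 3.04, 2.53, 2.64 and 2.41 CPM in PBS replicates 1 to 5. It was at 2.10, 1.68, 3.32, 2.39 and 2.91 CPM in the isotype libraries and at 3.54, 2.97, 3.40, 2.79 and 2.53 CPM in the anti–IL-4Rα libraries. The isotype libraries held both the lowest values and one of the highest, and the groups overlapped in every comparison. The log2 fold change of the isotype against the PBS group was -0.15 (95% interval -0.50 to 0.21, adjusted p = 0.573), so the fold lay between 0.707 and 1.15. The log2 fold change of anti–IL-4Rα against isotype was 0.30 (interval -0.05 to 0.65, adjusted p = 0.219). Between 103 and 233 counts per library lay behind these values.

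*Il33* (ENSMUSG00000024810, chromosome 19, 29925114 to 29960718) encodes a nuclear cytokine that epithelial and stromal cells release on damage. It was at 54.8, 56.9, 61.5, 42.6 and 56.1 CPM in the PBS libraries, at 57.8, 44.5, 57.9, 56.4 and 74.6 CPM in the isotype libraries, and at 57.5, 37.5, 50.1, 49.4 and 37.2 CPM in the anti–IL-4Rα libraries. The PBS and isotype groups overlapped except for isotype replicate 5, which lay above every PBS library, and 2 anti–IL-4Rα libraries lay below every other library. The log2 fold change was 0.10 for isotype against PBS (interval -0.21 to 0.41, adjusted p = 0.682), a sign that turned without isotype replicate 5, and -0.33 for anti–IL-4Rα against isotype (interval -0.64 to -0.02, adjusted p = 0.132).

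*Il25* (ENSMUSG00000040770, chromosome 14, 54932695 to 54935837), in epithelium a product mainly of tuft cells, was near the limit of detection, with 13 to 36 counts per library. The PBS libraries had 0.385, 0.288, 0.265, 0.593 and 0.633 CPM, the isotype libraries 0.449, 0.153, 0.269, 0.332 and 0.271 CPM, and the anti–IL-4Rα libraries 0.383, 0.543, 0.495, 0.321 and 0.472 CPM. The group means of 0.433, 0.295 and 0.443 CPM differed by less than their spread allows to call. The log2 fold changes were -0.57 for isotype against PBS (interval -1.22 to 0.07, adjusted p = 0.204) and 0.62 for anti–IL-4Rα against isotype (interval -0.03 to 1.27, adjusted p = 0.169). These intervals are the widest among the ligands and reach a fold of 0.429 in the first comparison and 2.42 in the second.

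*Il1rl1* was at 3.37, 4.21, 4.02, 3.82 and 3.74 CPM in the PBS libraries. In isotype replicates 1 to 5 it was at 4.88, 26.8, 19.8, 21.7 and 18.8 CPM. In the anti–IL-4Rα libraries it was at 5.77, 5.76, 7.53, 5.66 and 5.67 CPM. The PBS and anti–IL-4Rα libraries were each close together, while the isotype group split into 4 high libraries and replicate 1, which lay above all PBS libraries and below all anti–IL-4Rα libraries. Between 200 and 2621 counts per library lay behind these values.

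Against the PBS group, *Il1rl1* rose 4.81-fold in the isotype group (log2 fold change 2.27, SE 0.31, edgeR adjusted p = 0.000936). The 95% interval of the fold was 3.03 to 7.63. The lowest isotype value exceeded the highest PBS value. A two-sided exact permutation test over the 10 libraries gave p = 0.00794, the lowest value possible with 5 in each group. Such a separation was found for 12.3% of all genes tested in this comparison. The increase was called in each of the 8 other settings and without each library in turn, at log2 fold changes of 2.09 to 2.51 without a library. On the log2(FPKM + 1) scale that the study's methods use (FPKM also divides by exon length, and the added 1 shrinks changes of low genes), it was 1.15 (adjusted p = 0.0102).

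With anti–IL-4Rα, *Il1rl1* was 3.03-fold lower than in the isotype group (log2 fold change -1.60, SE 0.30, edgeR adjusted p = 0.00769). The 2 groups overlapped through isotype replicate 1 (exact permutation test, two-sided p = 0.0476), where 7.31% of all genes had groups that did not overlap. Without that replicate the log2 fold change was -1.84 and the adjusted p 4.46e-06. The call was lost when a lacrimal gland marker score was added as a covariate, at a log2 fold change of -1.33 and an adjusted p of 0.0742; that score was high in most anti–IL-4Rα libraries, and its part in the result was not tested further. On the log2(FPKM + 1) scale the log2 fold change was -0.89.

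Against the PBS group, *Il1rl1* in the anti–IL-4Rα group was at 6.08 ± 0.815 CPM, compared with 3.83 ± 0.316 CPM (n = 5 each), and the lowest anti–IL-4Rα value exceeded the highest PBS value (two-sided p = 0.00794 in the exact test). In this comparison 6.10% of all genes had groups that did not overlap. The edgeR test did not call it (log2 fold change 0.67, interval 0.02 to 1.31, adjusted p = 0.203). It was called when the 2 groups alone were fitted (adjusted p = 0.0159) and when isotype replicate 1 was left out of the shared estimate of spread (adjusted p = 0.0141). It was not called in the other 7 settings, among them the log2(FPKM + 1) scale, where the log2 fold change was 0.26 (adjusted p = 0.499), nor without any other single library.

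**Figure D2:**
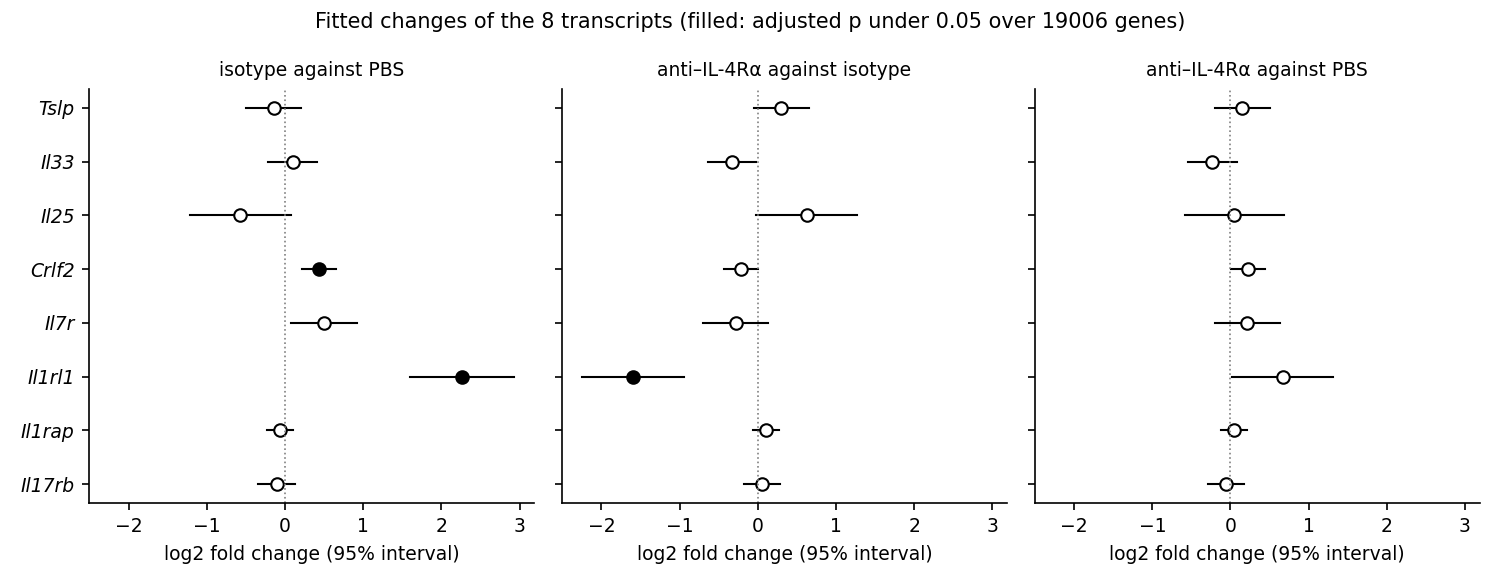
Log2 fold changes of the 8 genes in the 3 comparisons with 95% intervals from edgeR; filled points passed an adjusted p of 0.05 over 19006 genes. Il1rl1 stands apart at 2.27 and -1.60, Crlf2 is filled at 0.44 in the first panel, and no point is filled in the third.

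*Il1rap* (ENSMUSG00000022514, chromosome 16, 26581704 to 26730117), the accessory chain that ST2 shares with the receptors of IL-1 and IL-36, did not follow *Il1rl1*. Its means were 27.7 ± 2.70 CPM in the PBS group, 26.5 ± 0.831 in the isotype group and 28.6 ± 3.14 in the anti–IL-4Rα group (n = 5 each). The 15 libraries ran from 24.2 to 32.1 CPM, and the intervals of the log2 fold change were narrow, -0.23 to 0.10 for isotype against PBS and -0.06 to 0.27 for anti–IL-4Rα against isotype. The ratio of *Il1rl1* to *Il1rap*, each per length of exon as FPKM, was 0.231 ± 0.0389 in the PBS group, 1.14 ± 0.517 in the isotype group and 0.356 ± 0.0833 in the anti–IL-4Rα group. In 4 isotype libraries *Il1rl1* exceeded *Il1rap* per length, which no library of the other groups did, while isotype replicate 1 had a ratio of 0.308. The length is that of all annotated exons together, 6894 bases for *Il1rl1* and 11360 for *Il1rap*, and the order depends on it. In CPM *Il1rap* was above *Il1rl1* in isotype replicates 3 to 5 (27.1, 27.7 and 26.3 against 19.8, 21.7 and 18.8). It was also above in replicate 1, but below in replicate 2 (25.6 against 26.8). *Il33* exceeded *Il1rl1* per length in all 15 libraries, and the ratio of *Il1rl1* to *Il33* was 0.0299 ± 0.00467, 0.140 ± 0.0793 and 0.0562 ± 0.0105 in the PBS, isotype and anti–IL-4Rα groups.

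**Figure D3:**
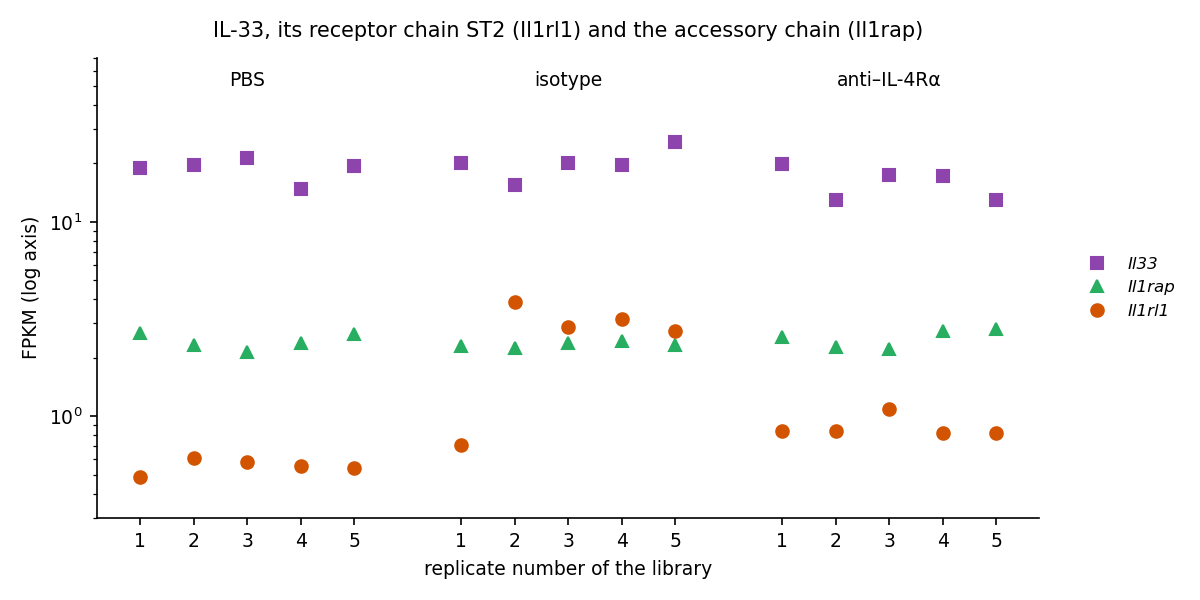
FPKM (log axis) of Il33, Il1rap and Il1rl1 in each of the 15 libraries, by group and replicate number. As FPKM, Il1rl1 lies above Il1rap in isotype replicates 2 to 5, an order that depends on the exon lengths used. Il33 stays above both in every library.

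Of the neighbours of *Il1rl1* in the cluster of IL-1 receptor genes on chromosome 1, *Il18r1* and *Il1r1* were looked at. *Il18r1* starts at 40465552, just past the end of *Il1rl1*, on the same strand. *Il1r2*, *Il1rl2* and *Il18rap*, which lie in the same cluster, were not looked at. *Il18r1*, a chain of the IL-18 receptor, was at 12.2 ± 1.27, 10.95 ± 1.56 and 11.4 ± 2.38 CPM in the PBS, isotype and anti–IL-4Rα groups, with a log2 fold change of -0.16 for isotype against PBS (adjusted p = 0.426). *Il1r1*, the receptor of IL-1, was at 40.2 ± 2.14, 40.2 ± 3.77 and 37.0 ± 1.93 CPM. Neither was called in any comparison.

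*Crlf2* (ENSMUSG00000033467, chromosome 5, 109554709 to 109558993) encodes the chain that makes the IL-7 receptor α chain a receptor for TSLP. It was at 10.5, 10.1, 11.6, 10.4 and 10.7 CPM in the PBS libraries, at 10.95, 13.9, 16.2, 15.1 and 16.2 CPM in the isotype libraries, and at 13.3, 11.4, 14.5, 11.6 and 11.8 CPM in the anti–IL-4Rα libraries. Isotype replicates 2 to 5 lay above every PBS library and replicate 1 within their range. In the isotype group *Crlf2* rose 1.35-fold against the PBS group (interval 1.17 to 1.57, log2 fold change 0.44, SE 0.10, edgeR adjusted p = 0.0121), and it was called in all 8 other settings and without each library in turn. The anti–IL-4Rα group lay between the other groups. Its log2 fold change was -0.21 against isotype (adjusted p = 0.164) and 0.23 against PBS (adjusted p = 0.194). Without isotype replicate 1 the first of these was -0.29 and was called (adjusted p = 0.0232).

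*Il7r* (ENSMUSG00000003882, chromosome 15, 9505788 to 9530176), a chain of the receptors of both IL-7 and TSLP and abundant in T cells, was at 7.66, 5.16, 6.78, 6.98 and 6.54 CPM in the PBS libraries. It was at 6.13, 8.90, 11.3, 8.21 and 12.2 CPM in the isotype libraries and at 6.69, 7.46, 11.2, 6.03 and 6.97 CPM in the anti–IL-4Rα libraries. Again isotype replicates 2 to 5 lay above every PBS library, and anti–IL-4Rα replicate 3 stood above the rest of its group. The log2 fold change of isotype against PBS was 0.50 (SE 0.19) and missed the threshold (adjusted p = 0.0914). It passed in DESeq2 (adjusted p = 0.0492), with the lacrimal score as a covariate (adjusted p = 0.0239) and without isotype replicate 1 (adjusted p = 0.0284). Its log2 fold change with anti–IL-4Rα was -0.29 against isotype (interval -0.70 to 0.13, adjusted p = 0.317) and 0.21 against PBS (interval -0.20 to 0.63, adjusted p = 0.553). The ratio of *Crlf2* to *Il7r* per length was 5.10 ± 0.689, 4.95 ± 0.692 and 5.25 ± 0.893 in the PBS, isotype and anti–IL-4Rα groups, close to level over the 3 groups.

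*Il17rb* (ENSMUSG00000015966, chromosome 14, 29996135 to 30008896), the chain that binds IL-25, was at 2.95 ± 0.310, 2.73 ± 0.287 and 2.84 ± 0.337 CPM in the PBS, isotype and anti–IL-4Rα groups (n = 5 each), with 114 to 245 counts per library. The interval of its log2 fold change was -0.34 to 0.12 for isotype against PBS and -0.18 to 0.29 for anti–IL-4Rα against isotype. Its partner chain *Il17ra*, shared with the receptors of other IL-17 cytokines, did rise in the isotype group, from 27.4 ± 0.562 to 35.8 ± 4.50 CPM (log2 fold change 0.38, edgeR adjusted p = 0.00829). With anti–IL-4Rα *Il17ra* fell to 29.2 ± 2.83 CPM (log2 fold change -0.29, adjusted p = 0.0316). This call is from the fit without the lacrimal covariate. *Il17ra* is among 35 other pathway genes, of which 10 were called in this comparison, but 1 with that covariate.

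For the ligands and the other chains, the log2 fold change of anti–IL-4Rα against PBS was 0.15 for *Tslp* (interval -0.20 to 0.50) and -0.23 for *Il33* (interval -0.54 to 0.08). It was 0.050 for *Il25* (interval -0.58 to 0.68), 0.046 for *Il1rap* (interval -0.12 to 0.21) and -0.054 for *Il17rb* (interval -0.29 to 0.18). The values of *Il25* and *Il1rap* changed sign with the lacrimal covariate, and that of *Il25* also without some single libraries. None of the 5 was called, at edgeR adjusted p of 0.366 to 0.948.

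Compared per length over the 15 libraries, *Il33* had the highest level of the 8 genes, at 18.4 ± 3.39 FPKM, and *Crlf2* the next, at 8.39 ± 1.42 FPKM, each above the next gene in all 15 libraries. The length is that of all annotated exons of a gene together, so this order depends on the annotation. *Il1rap* (2.43 ± 0.213), *Tslp* (2.07 ± 0.378) and *Il7r* (1.69 ± 0.455 FPKM) followed; *Il1rap* exceeded *Tslp* in 12 libraries and *Tslp* exceeded *Il7r* in 13. *Il25* was lowest, at 0.367 ± 0.129 FPKM, and below *Il17rb* (0.766 ± 0.0816 FPKM) in all 15 libraries. *Il1rl1* was the gene whose place moved most. It was the 7th of the 8 in the PBS group (0.556 ± 0.0458 FPKM), the 3rd in the isotype group (2.67 ± 1.18 FPKM) and the 6th in the anti–IL-4Rα group (0.882 ± 0.118 FPKM). In the isotype group *Il1rl1*, *Il1rap*, *Il7r* and *Tslp* were not separated beyond their spread.

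Other genes of these pathways were counted from lists of 35 genes, of which 32 passed the filter. *Il5* had at most 13 counts in a library, *Tnfsf4* had 2 to 13 counts, and *Il9* had 0 counts in every library. Of the 32 tested, 10 were called in the isotype group against PBS, where 17.0% of all genes were. With anti–IL-4Rα against isotype 10 were called, where 14.9% of all genes were, but 1 with the lacrimal score as a covariate, 3 in the fit to the 2 groups alone and 14 without isotype replicate 1. With anti–IL-4Rα against PBS 3 were called, where 3.72% of all genes were, and 0 with the lacrimal covariate. The calls given below for the anti–IL-4Rα group, and that of *Il17ra* above, are those of the fit without the covariate. The comparisons share libraries, so these counts are not independent of each other.

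Among the other ligands and chains of the same receptors, 2 of 8 rose and 1 fell in the isotype group, with a median log2 fold change of 0.10 against -0.012 over all genes tested. *Il2rg*, the common γ chain that pairs with the IL-7 receptor α chain for IL-7, rose from 11.7 ± 1.04 to 20.9 ± 6.15 CPM (log2 fold change 0.85, edgeR adjusted p = 0.0100). *Il7*, the other ligand of *Il7r*, fell from 3.36 ± 0.741 to 2.31 ± 0.174 CPM (log2 fold change -0.54, adjusted p = 0.0230). With anti–IL-4Rα *Il7* rose to 3.26 ± 0.452 CPM (log2 fold change 0.49, adjusted p = 0.0389), and 1 of 8 rose and 1 fell in that comparison, at a median of -0.21 against 0.0091 over all genes. Against PBS, 0 of 8 were called with anti–IL-4Rα (median 0.024, against -0.0043 over all genes).

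Of the 12 signal transducers, 3 rose in the isotype group and 0 fell (median log2 fold change 0.11). *Jak2*, a kinase of the TSLP receptor, rose by a log2 fold change of 0.50 (adjusted p = 0.00947), *Myd88*, the adaptor of ST2, by 0.29 (adjusted p = 0.00664), and *Irak4*, a kinase recruited by MYD88, by 0.27 (adjusted p = 0.0330). With anti–IL-4Rα against isotype *Jak2* fell by 0.44 on the log2 scale (adjusted p = 0.0222), *Myd88* fell by 0.28 (adjusted p = 0.0120) and *Irak1* rose by 0.43 (adjusted p = 0.0200), with 9 of 12 not called and a median of -0.056. *Irak1* also differed between anti–IL-4Rα and PBS (log2 fold change 0.45, adjusted p = 0.0365), as 1 of 12 (median 0.061).

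Of the type 2 genes that lie downstream of alarmins, 7 of 10 could be tested, and 3 rose in the isotype group (median log2 fold change 0.25). These were *Il4* (0.10 ± 0.0437 to 0.341 ± 0.150 CPM, log2 fold change 1.74, adjusted p = 0.0166), *Il13* (0.345 ± 0.0965 to 0.855 ± 0.191 CPM, 1.30, adjusted p = 0.00717) and *Areg*, which encodes a growth factor of the EGF family (4.88 ± 0.815 to 8.92 ± 2.5 CPM, 0.87, adjusted p = 0.0118). With anti–IL-4Rα 4 of 7 fell against isotype (median -0.70). *Ccl17*, a chemokine for T cells, fell from 1.02 ± 0.780 to 0.284 ± 0.0695 CPM (log2 fold change -1.88, adjusted p = 0.0159). *Areg* fell by 1.04 on the log2 scale (adjusted p = 0.00867), *Cish*, a target of STAT5, fell by 0.73 (adjusted p = 0.00168), and *Ccl22*, which shares its receptor with *Ccl17*, fell by 0.45 (adjusted p = 0.0358). *Il4* and *Il13* were not called with anti–IL-4Rα, at log2 fold changes of -0.41 (adjusted p = 0.485) and -0.70 (adjusted p = 0.0811). *Ccl17* and *Cish* were also lower with anti–IL-4Rα than in the PBS group (log2 fold changes -2.10 and -0.48, adjusted p = 0.0255 and 0.0302), 2 of 7 in all (median -0.26).

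Because MC903 acts through the vitamin D receptor, that receptor and its partners (*Vdr*, *Rxra* and *Rxrb*), its target *Cyp24a1* and *F2rl1*, a protease receptor known to induce *Tslp*, were looked at together. All 3 groups had MC903, on the ear for 7 days, before the eye challenges began on day 18, so the groups do not differ in it. Of these 5 genes 1 was called in the isotype group, *Cyp24a1*, which encodes the enzyme that degrades vitamin D and rose from 0.151 ± 0.0642 to 0.700 ± 0.544 CPM (log2 fold change 2.22, SE 0.50, adjusted p = 0.0107; list median 0.040). It had 4 to 94 counts per library. *Cyp24a1* fell to 0.178 ± 0.0660 CPM with anti–IL-4Rα (log2 fold change -2.02, adjusted p = 0.0213; list median -0.24), and 0 of 5 were called between anti–IL-4Rα and PBS (median -0.085). *Vdr* itself was at 120 ± 12.1, 152 ± 48.5 and 105 ± 20.8 CPM in the PBS, isotype and anti–IL-4Rα groups and was not called.

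**Figure D4:**
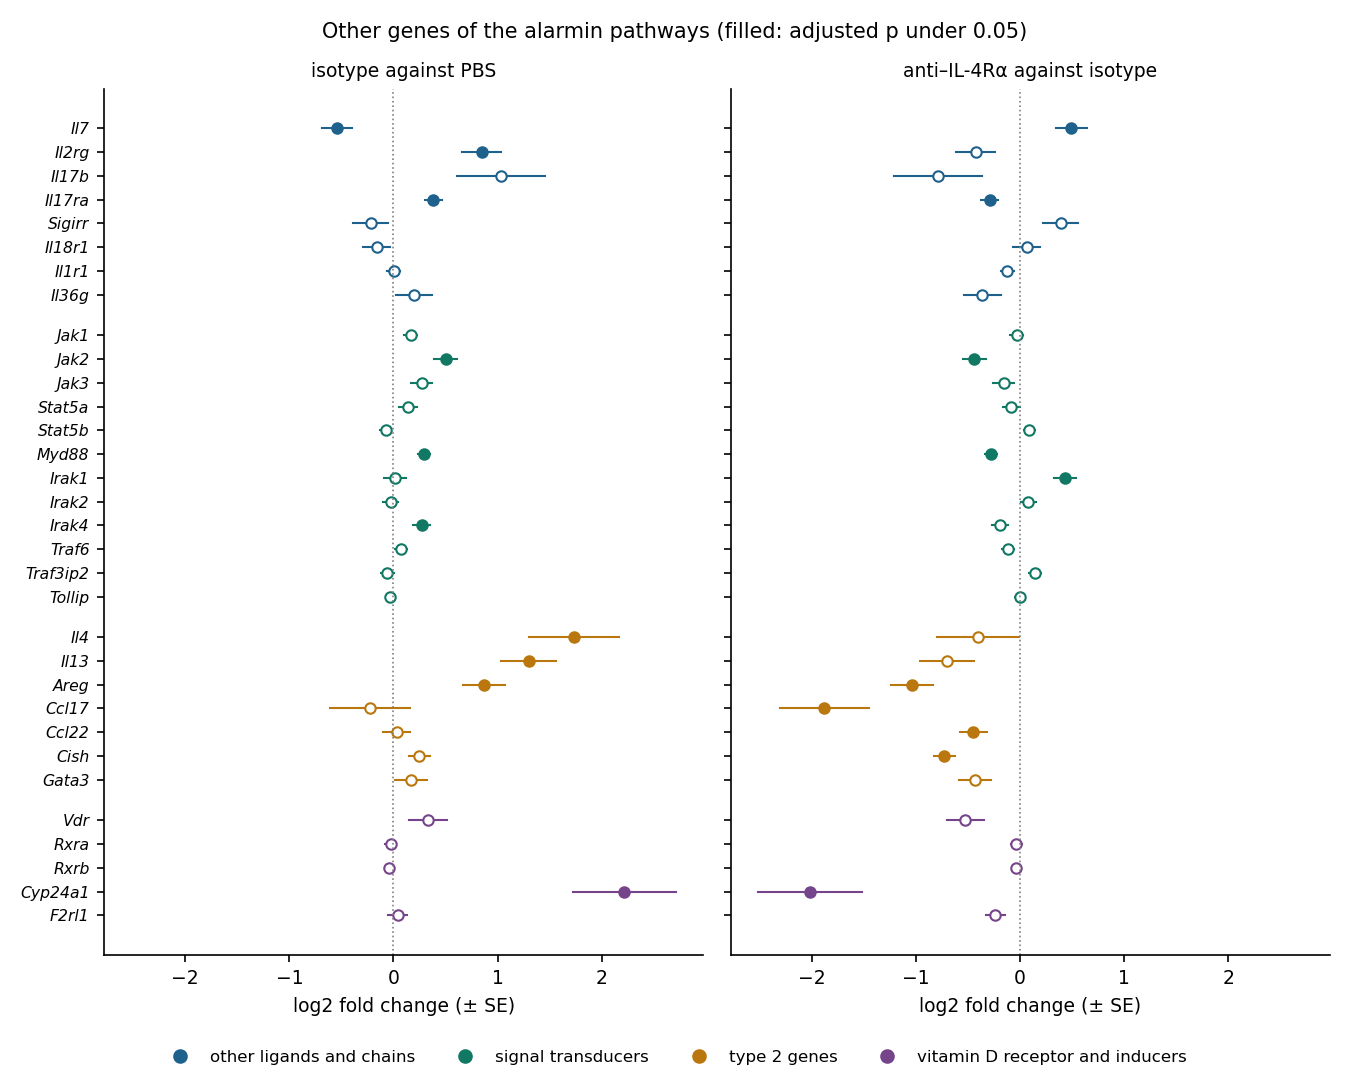
Log2 fold changes (± SE) of the 32 other pathway genes that were tested, for isotype against PBS (left) and anti–IL-4Rα against isotype (right), colored by list; filled points were called, 10 on each side. Both comparisons share the isotype libraries. Cyp24a1, Il4 and Il13 lie farthest to the right on the left side, and Cyp24a1 and Ccl17 farthest to the left on the right side.

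In whole tissue, fewer cells of a type and less RNA per cell cannot be told apart, so markers of 11 cell types and tissues were set beside the receptor chains. In the isotype group against PBS, 4 of 7 mast cell markers, 4 of 4 basophil markers, 2 of 2 eosinophil markers that could be tested, 3 of 6 T cell markers and 5 of 6 dendritic cell and macrophage markers rose. Also higher were 1 of 5 endothelial and 1 of 6 surface epithelium markers, while 0 of 4 B cell, 0 of 5 fibroblast and 0 of 5 lacrimal markers tested were called. All 5 skeletal muscle markers were lower. Of all genes tested, 9.53% were called higher and 7.49% lower in this comparison. With anti–IL-4Rα against isotype, 2 of 7 mast cell, 1 of 4 basophil, 2 of 6 dendritic cell and macrophage and 2 of 6 surface epithelium markers fell and 1 of 5 lacrimal markers rose, and 0 were called in the other 6 lists. Here 6.73% of all genes were called higher and 8.13% lower, 2826 genes in all, but 229 with the lacrimal covariate. With anti–IL-4Rα against PBS, where the values of *Il1rl1* did not overlap, 2 of 4 basophil, 1 of 2 eosinophil, 1 of 6 T cell and 1 of 5 lacrimal markers were higher, and 0 were called in the other 7 lists. The shares of all genes were 2.28% higher and 1.44% lower. No marker was at 0 in all libraries, but *Epx* of the eosinophil list and *Dcpp1* of the lacrimal list stayed under 10 counts in every library.

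Cells of the mast cell and basophil lineages are known to carry ST2. The mast cell list held *Kit*, *Cpa3*, *Cma1*, *Mcpt4*, *Tpsb2*, *Tpsab1* and *Hdc*, and the basophil list *Mcpt8*, *Cd200r3*, *Fcer1a* and *Ms4a2*. The paper names *Cpa3* among basophil-associated genes. *Fcer1a* and *Ms4a2* encode parts of the receptor that binds IgE, and the paper describes mast cells as activated through IgE too. It calls the product of *Mcpt8* specific for basophils. The 2 lists therefore do not fully separate these cells. The mast cell markers summed to 141 to 192 CPM in the PBS group, 162 to 305 in the isotype group and 157 to 208 in the anti–IL-4Rα group. The basophil markers summed to 1.34 to 2.99, 4.88 to 19.4 and 3.16 to 7.74 CPM in the same order. In the PBS group *Ms4a2* was the largest part of this sum, at a mean of 1.68 CPM, and *Mcpt8* was at 0.0375 CPM. The mean of *Mcpt8* was 2.63 CPM in the isotype group and 0.774 CPM in the anti–IL-4Rα group. The basophil sum is therefore not a measure of basophils alone. Isotype replicate 1, the library low in *Il1rl1*, was lowest of the isotype group in both the mast cell and the basophil sum. Isotype replicate 2, highest in *Il1rl1* at 26.8 CPM, had 196 CPM of mast cell markers, below isotype replicates 3 to 5, and the highest summed fibroblast markers of its group, at 5731 CPM. The fibroblast markers summed to 2511 to 3202, 2662 to 5731 and 2657 to 4761 CPM in the PBS, isotype and anti–IL-4Rα groups. The part of these cells in the change of *Il1rl1* was not tested.

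Over the 15 libraries, with each group centered on its mean, 88 correlations were computed between the 8 genes and the 11 marker scores, and 2 passed adjustment over them. *Il7r* followed the T cell score (Pearson r = 0.965, Spearman rho = 0.900, permutation test, adjusted p = 0.00044 and 0.00792) and the dendritic cell and macrophage score (r = 0.957, rho = 0.961, adjusted p = 0.00044 and 0.00088). Without the 2 libraries farthest from the median score r was 0.937 and 0.944. *Il1rl1* was not called with any score. Its largest r was with the fibroblast score, at 0.718 with rho 0.389 (permutation test, adjusted p = 0.342 and 0.540), and r was 0.287 without the 2 farthest libraries, isotype replicates 1 and 3. With the mast cell score its r was 0.548 and rho 0.411 (permutation test, adjusted p = 0.50 and 0.540), and r was 0.0529 without the 2 farthest libraries, isotype replicates 1 and 5. All values come from the same 15 libraries, which also differ in their share of lacrimal gland and muscle RNA.

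**Figure D5:**
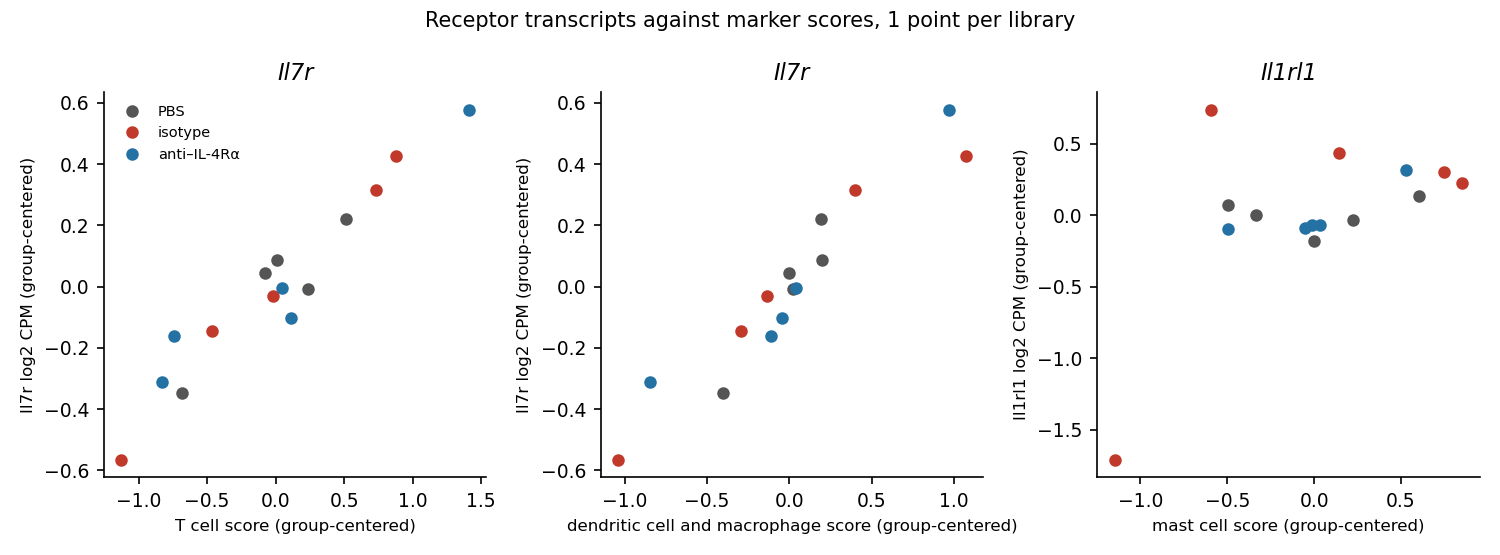
Log2 CPM of Il7r against the T cell score and the dendritic cell and macrophage score, and of Il1rl1 against the mast cell score, 1 point per library, all centered within groups. The Il7r points lie along a line (r = 0.965 and 0.957), while the Il1rl1 panel has isotype replicate 1 alone at the lower left.

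The protein-coding genes most like *Il1rl1* across the 15 centered libraries, among 16160 compared, were *Zc3h11a*, *Pdgfra* and *Timp1* (r = 0.904, 0.884 and 0.880). Their Spearman rho were 0.707, 0.825 and 0.389 in the same order. *Pdgfra*, a receptor known from fibroblasts, was also among the 3 nearest by Spearman correlation. It is 1 of the 5 genes of the fibroblast list, whose score was not called with *Il1rl1*. Those most like *Il7r* were *Sh2d2a*, *Ipcef1* and *Cd2* (r = 0.974, 0.972 and 0.969), of which *Cd2* is a T cell surface protein. *Crlf2* was closest to *Tnfrsf1b*, *Ptger2* and *Adam19* (r = 0.924, 0.889 and 0.887), *Tslp* to *Aspa*, *Itln1* and *Zfp992* (r = 0.952, 0.869 and 0.866), and *Il33* to *Acot11*, *Adam15* and *Tpi1* (r = 0.937, 0.928 and 0.916). *Il25* was closest to *Rnf167*, *Odf3l2* and *Smim27* (r = 0.808, 0.804 and 0.801), *Il1rap* to *Ankrd27*, *Dop1b* and *Wfdc12* (r = 0.902, 0.891 and 0.886), and *Il17rb* to *Lrrc57*, *Ube3a* and *Ccs* (r = 0.883, 0.829 and 0.823). Of the 24 genes so named, 9 were also among the 3 nearest by Spearman correlation. They have the largest of 16160 correlations for each gene, and how large such values are by chance over 15 libraries was not computed.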

How the data were processed

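The authors deposited estimated counts per gene for the 15 conjunctiva libraries, not scaled for depth and not pooled. According to the methods, reads were filtered at a Q score of 20 and mapped uniquely to the mouse B38 genome in Omicsoft Array Studio, whose version and use of strand are not given in the sources used here. The RNA was polyA-selected, and counts were rounded to whole numbers before testing. GENCODE M21 (GRCm38) gave names, positions and exon lengths and matched 55141 of 55487 identifiers (346 not), an older release than the authors' gene model; *Il36g* was found under *Il1f9*. Groups came from the labels.

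Genes reaching 10 counts in 5 or more libraries entered edgeR 4.0.16 (TMM, quasi-likelihood, one model over the 3 groups, two-sided, R 4.3.3), with Benjamini-Hochberg adjustment over the 19006 genes of each comparison. The model used all 15 libraries, which share 1 estimate of spread. The methods used a linear model on log2(FPKM + 1) scaled to the 75th quantile, which was run as an alternative. Single genes were also compared by exact permutation tests over 252 regroupings. Correlations used log2 CPM (prior count 2) centered within groups and 100000 permutations. The sample titles number the mice, and the p-values measure the spread between these libraries. Libraries of 1 group differed by more than counting error (chi-square per degree of freedom 19.5 to 1070 over 30 pairs).

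All 8 genes were named in every comparison, with the 3 protein-coding genes most like each, and up to 4 called genes of each pathway list. *Il18r1*, *Il1r1*, *Vdr*, and *Il5*, *Il9* and *Tnfsf4* were added with values in view. The genes and lists were chosen with earlier results of these data known. Promoter windows were taken from a RefSeq table (GRCm38.p6). Windows of 6 of the 8 genes were used, all but *Tslp* and *Il25*. Alternatives were upper quartile factors, DESeq2 1.42.0, no filter, filterByExpr, fits to 2 groups, a block for the replicate number, a lacrimal covariate, another prior count, Spearman correlation and leaving out each library. The steps were tested on simulated data. Plots used matplotlib 3.10.9 in Python 3.11.15.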

Additional observations from a re-analysis of the deposited data

Results flagged for a closer look

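Within groups of 5 libraries, 2 values stood far from the rest of their group by Dixon's criterion, out of 24 groups looked at (8 genes in 3 groups); chance gives about 1 in 20. *Il7r* was at 11.2 CPM in anti–IL-4Rα replicate 3, where the other libraries of the group had 6.03 to 7.46 CPM. *Il1rl1* was at 7.53 CPM in the same library, where the others had 5.66 to 5.77 CPM. That library had the highest summed T cell markers of all 15, at 45.04 CPM, and the lowest lacrimal markers of its group, at 250.6 CPM; their part in these values was not tested.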

How the results depend on the processing

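Of 192 fold changes of the 8 genes under the 8 other settings, 186 kept their direction and their side of the threshold, and of 360 with 1 library left out, 353 did. The signs that turned belonged to fold changes near 0: *Il33* for isotype against PBS (-0.0063 to 0.18 without 1 library, the first without isotype replicate 5), and for anti–IL-4Rα against PBS *Il25* (-0.28 with the lacrimal covariate, and between -0.081 and 0.23 without 1 library: -0.065 without PBS replicate 2, -0.081 without PBS replicate 3 and -0.035 without anti–IL-4Rα replicate 2) and *Il1rap* (-0.072 with the lacrimal covariate). For anti–IL-4Rα against isotype, the number of the 8 genes called went from 1 to 0 with the lacrimal covariate and was 1 to 2 without 1 library, with 2 without isotype replicate 1. For anti–IL-4Rα against PBS it went from 0 to 1 in the fit to 2 groups and was 0 to 1 without 1 library, with 1 without isotype replicate 1. The other pathway genes called for anti–IL-4Rα against isotype, 10 as reported, were 5 on log2(FPKM + 1), 3 in the fit to 2 groups, 1 with the lacrimal covariate and 4 to 14 without 1 library (4 without isotype replicate 3 or anti–IL-4Rα replicate 1, 14 without isotype replicate 1). For anti–IL-4Rα against PBS, 3 as reported, they were 1 on log2(FPKM + 1), 0 with the lacrimal covariate and 0 to 4 without 1 library. Of all genes, 3235 were called for isotype against PBS and 1863 to 3936 without 1 library. For anti–IL-4Rα against isotype, 2826 were called, 1749 with no filter, 675 in the fit to 2 groups, 229 with the lacrimal covariate and 882 to 4206 without 1 library. For anti–IL-4Rα against PBS, 707 were called, 1966 with DESeq2, 327 with no filter, 294 on log2(FPKM + 1), 98 with the lacrimal covariate and 82 to 2029 without 1 library. The cause of these differences was not tested.

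With the replicate number as a block the calls over all genes were 2115, 1859 and 312 in the 3 comparisons, and no call of the 8 genes changed. The libraries share only a number: 4 of 15 correlations between same-numbered libraries of different groups were over 0.1, and 3 of 15 libraries correlated best with their own number. *Il25* rests on 13 to 36 counts per library.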
